A study of Mus musculus with 9 samples.

Results

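The immediate early transcription factor genes examined here are 10 of the 20660 mouse genes that could be named on the arrays. They are the AP-1 genes Fos, Fosb, Fosl1, Fosl2 and Jun, the zinc finger genes Egr1, Egr2 and Egr3, and the immediate early response genes Ier2 and Ier3. The 10 genes were selected on their measured levels across all 9 arrays, with the changes between days and between lines already known, so these changes are a description of the genes and support nothing by themselves. They were read through 11 probes, since Fosl2 has 2 and each of the others 1. Of the 10 genes, 9 passed the filter on low signals and Egr3 did not.

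Total RNA came from 3 lines of mouse embryonic stem (ES) cells, which the labels call wild type, PKM1 knock-in and PKM2 knock-in. The knock-ins are named for the splice isoforms of pyruvate kinase M, an enzyme of glycolysis, and the labels give no further detail of the alleles. Each line was taken undifferentiated with leukemia inhibitory factor (LIF) in the medium at day 0, and as embryoid bodies, aggregates grown in suspension without LIF, at day 3 and at day 7. Every line and day had 1 one-colour Agilent array, so a genotype is 1 line and the p-values below measure only the spread between these 9 arrays. In bulk RNA, fewer cells of a type and less RNA per cell cannot be told apart, and this holds for every level below.

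Immediate early genes are transcribed within minutes of a growth, stress or adhesion signal, without new protein synthesis, and their messenger RNAs are short-lived. FOS and JUN proteins pair through leucine zippers to form AP-1, while EGR proteins bind GC-rich sites through zinc fingers. In ES cells the MAP kinase pathway that induces them works against self-renewal, whereas LIF supports it. Serum and the handling of cells are also known inducers.

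RefSeq promoter sequences (build GRCm38.p6) were at hand for 6 of the 10 genes, Fos, Fosb, Fosl2, Jun, Egr2 and Ier3. Of these, 3 are shown in full because these genes were called lower at day 3 than at day 0, each as the 250 bases before its transcription start, with matches to the searched motifs in capitals. Fos (chr12:85473640-85473889, plus strand) has a TATA box and 2 cyclic AMP response element cores. Fosb (chr7:19310046-19310295, minus strand) has 1 such core and 1 EGR site, and Jun (chr4:95052223-95052472, minus strand) has the AP-1 and ATF site TGACATCA.
Fos: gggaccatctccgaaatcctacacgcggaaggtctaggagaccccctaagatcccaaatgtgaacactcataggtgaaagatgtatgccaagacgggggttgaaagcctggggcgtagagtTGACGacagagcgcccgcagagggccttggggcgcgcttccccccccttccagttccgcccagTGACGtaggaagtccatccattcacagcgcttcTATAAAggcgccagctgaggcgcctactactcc
Fosb: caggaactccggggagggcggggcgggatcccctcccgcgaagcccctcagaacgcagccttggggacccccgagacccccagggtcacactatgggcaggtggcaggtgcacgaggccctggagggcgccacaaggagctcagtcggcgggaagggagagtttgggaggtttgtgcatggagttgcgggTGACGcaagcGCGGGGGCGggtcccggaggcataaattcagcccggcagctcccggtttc
Jun: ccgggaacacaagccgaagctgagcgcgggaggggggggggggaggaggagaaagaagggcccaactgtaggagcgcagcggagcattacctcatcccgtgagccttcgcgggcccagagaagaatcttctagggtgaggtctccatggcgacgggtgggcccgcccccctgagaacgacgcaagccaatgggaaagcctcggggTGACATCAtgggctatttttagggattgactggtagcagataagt
Egr2 has 5 annotated starts, and 4 of their windows hold a CArG box, the core of the serum response element. The 30 bases at chr10:67537793-67537822 (plus strand) carry the box CCATATATGG and, 7 bases after it, a cyclic AMP response element core on the opposite strand.
Egr2: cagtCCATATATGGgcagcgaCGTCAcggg

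The motifs were searched on both strands of the same 250-base window of all 32851 promoters in the table. TATAAA was present in 12.4% of them, TGACG in 17.8%, TGACGTCA in 1.55% and TGACATCA in 2.93%. The AP-1 motif TGANTCA was in 6.75%, the EGR motif GCGNGGGCG in 4.7% and the CArG box in 1.47%. TGACG also lies within TGACGTCA. Among the 6 members with a sequence, the TATA box was in Fos, the CArG box in Egr2, TGACATCA in Jun and the EGR motif in Fosb and Fosl2. TGACG was in Fos, Fosb and Egr2. No member window held TGANTCA or TGACGTCA. For every motif, absence from a gene says only that these letters are not in its window, since sites farther away were not searched. Every match is a description of the sequence.

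Levels are processed signals scaled so that the 75th percentile of every array is equal; a level of one gene is not set against that of another. Between 54.2% and 61.6% of spots were well above background, no spot was saturated, and no member spot was flagged. Correlations between arrays over the genes tested lay between 0.892 and 0.984. Slide 1 held wild type days 0 and 7, PKM1 knock-in day 3 and PKM2 knock-in days 0 and 3, slide 2 held wild type day 3 and PKM1 knock-in days 0 and 7, and slide 3 held PKM2 knock-in day 7 alone. The defining ES cell genes were present, and all 12 pluripotency markers were well above background on all 9 arrays. Fibroblast and feeder cell genes were present as well, at day 0 with 17 to 18 of 20 markers well above background, and the labels do not say whether feeder cells were used.

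In undifferentiated cells, 5 of the 9 measured members were highest in wild type, lower in PKM1 knock-in and lowest in PKM2 knock-in, with wild type at least 2-fold above PKM2 knock-in. These were Fos, Fosb, Egr1, Egr2 and Jun. Of all 15016 genes tested, 5.05% showed that order and size. Fosl1 and Fosl2 were highest in the PKM2 knock-in line instead, and Ier2 and Ier3 differed by at most 1.46-fold between any lines. With 1 array per line these differences have no test.

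Fos, whose protein is the AP-1 partner that cannot pair with itself, had a signal of 30925 in wild type, 18876 in PKM1 knock-in and 2797 in PKM2 knock-in cells at day 0. The wild type signal was 1.64-fold above PKM1 knock-in and 11.1-fold above PKM2 knock-in. Fosb, a close relative of Fos, had signals of 12799.9, 4521 and 709 in the same order, 18.1-fold apart between wild type and PKM2 knock-in. Both genes were thus far lower in the PKM2 knock-in line than in the other lines, with the PKM1 knock-in line in between.

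Jun, which encodes the main dimer partner of FOS, had signals of 16071, 7460.5 and 6013 in wild type, PKM1 knock-in and PKM2 knock-in cells. Here the knock-in lines differed from each other by only 1.24-fold and lay 2.15- and 2.67-fold below wild type. The gap between the PKM2 and PKM1 knock-in lines that Fos showed (6.75-fold) was therefore much smaller for its partner.

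Egr1, a zinc finger factor that serum response factor and the ternary complex factors induce, had day 0 signals of 46589, 18091 and 3990.3 in wild type, PKM1 knock-in and PKM2 knock-in cells, an 11.7-fold span. Egr2, known for its role in hindbrain patterning and myelination, had signals of 4439, 1212 and 332, a 13.4-fold span. Egr3 was well above background on the wild type day 0 array alone, with a signal of 21.5, so its levels elsewhere are bounds. Both measured EGR genes followed the order of Fos and Fosb.

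Fosl1, which encodes the AP-1 protein FRA1, had day 0 signals of 133 in wild type, 73.5 in PKM1 knock-in and 478 in PKM2 knock-in cells. Fosl2, which encodes FRA2, had signals of 224 and 212 in the first pair of lines and 703 in PKM2 knock-in cells. The PKM2 knock-in line was 3.58-fold and 3.14-fold above wild type in these genes. FRA1 and FRA2 lack the strong activation domain of FOS, and their genes are themselves AP-1 targets in other cells. The FOS-type genes thus divided at day 0 into Fos and Fosb, lowest in PKM2 knock-in cells, and Fosl1 and Fosl2, highest there.

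Ier2, which encodes a nuclear protein of the early growth response, had day 0 signals of 1387, 1300.0 and 952 in the same order of lines. Ier3, which encodes a stress-induced regulator of survival and NF-kappaB signalling, had signals of 675, 679 and 839. Neither gene reached a 2-fold difference between any pair of lines at day 0.

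**Figure D1:**
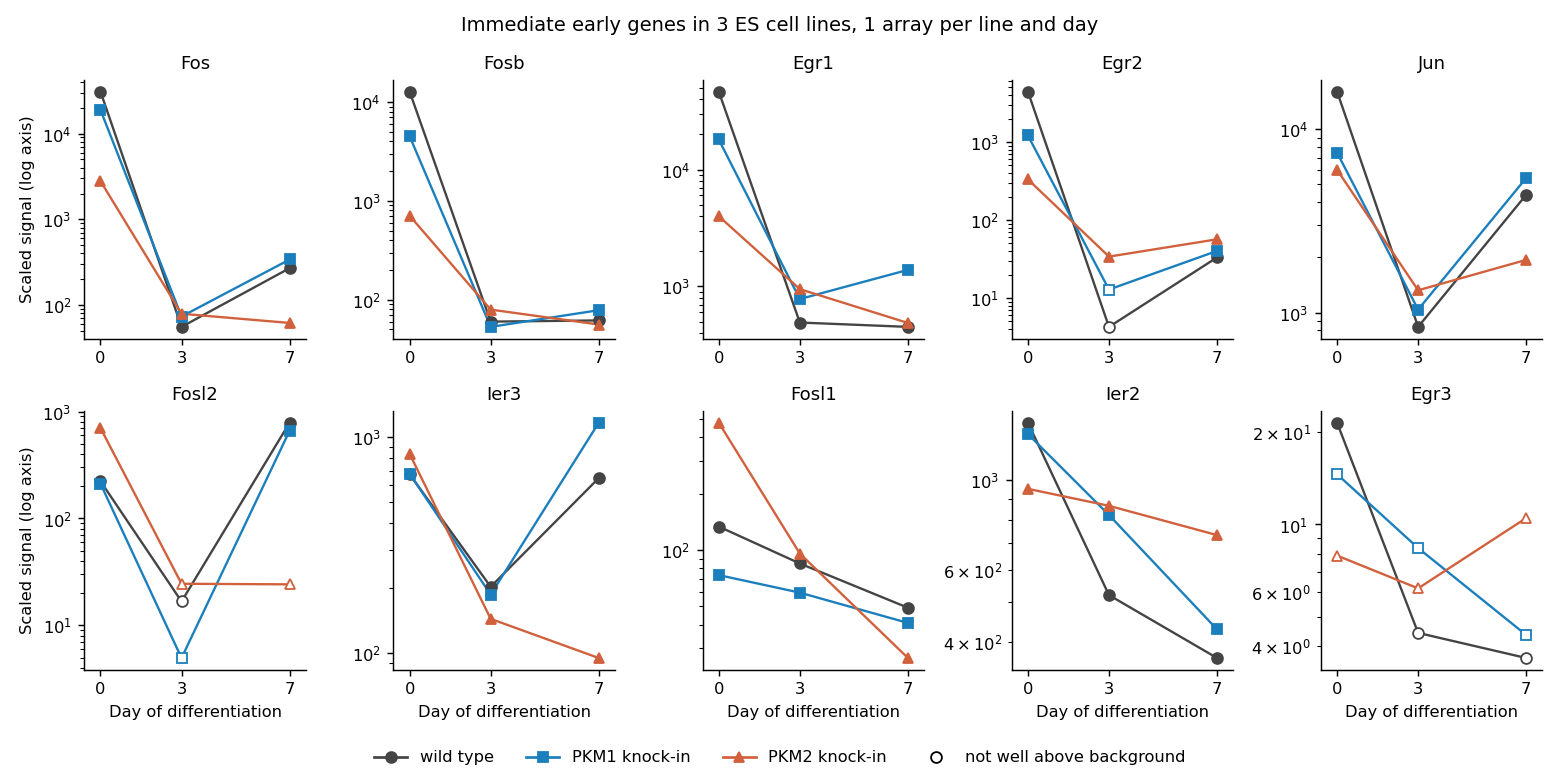
Scaled signal (log axis, separate for each gene) against day of differentiation for the 10 genes, with 1 point per array and open points where the probe was not well above background. At day 0 Fos runs from 30925 in wild type to 2797 in PKM2 knock-in cells, and at day 7 Fosl2 and Ier3 are high in wild type and PKM1 knock-in and low in PKM2 knock-in.

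Counted over pairs of lines at day 0, 5 of 9 members were at least 2-fold lower in PKM2 knock-in than in wild type, where 7.33% of all genes were. Between PKM1 knock-in and wild type, 4 members (Fosb, Jun, Egr1 and Egr2) were at least 2-fold lower, beside 6.48% of all genes. Between PKM2 and PKM1 knock-in, 4 members (Fos, Fosb, Egr1 and Egr2) were lower, beside 5.28%. In the other direction, Fosl1 and Fosl2 were at least 2-fold higher in PKM2 knock-in than in wild type (5.51% of all genes) and than in PKM1 knock-in (5.25%). The median member difference was -1.42 (log2) between PKM2 knock-in and wild type, against 0.08 over all genes. Wild type and PKM2 knock-in day 0 lay on the same slide, whereas the PKM1 knock-in day 0 array lay on another slide, which was scanned on another day.

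Fibroblast and feeder genes differed between the same day 0 arrays. The summed signal of the 20 markers was 18807 in wild type, 18310.1 in PKM1 knock-in and 9461 in PKM2 knock-in cells. Of 18 tested markers, 12 were lower in PKM2 knock-in than in wild type and 6 were higher (median -0.40 log2, all genes 0.08). Of all genes, 56.1% were higher. Dcn, a matrix proteoglycan gene, had signals of 10766, 10830.0 and 594. The collagen gene Col1a2 had 2735, 2352 and 1223. The gap between lines in the sum was no larger than that in Dcn alone. Since a sum follows its brightest genes, it cannot decide whether these markers differed in general. Of the other cell type lists, the pluripotency markers summed to 449767, 530091 and 453323. Heat shock genes, by contrast, had a median difference of 0.87 (log2) between PKM2 knock-in and wild type at day 0. There 8 of 9 were higher in PKM2 knock-in, beside 56.1% of all genes. The part of fibroblasts or of stress in the member differences was not tested.

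**Figure D2:**
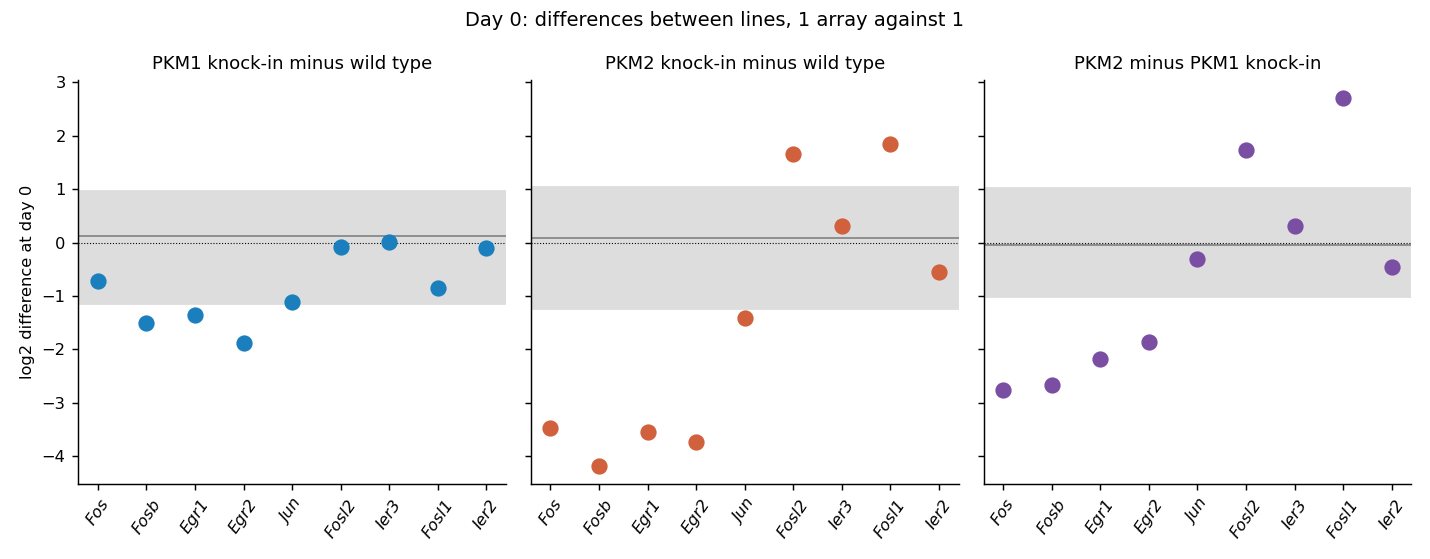
Difference in log2 signal at day 0 between pairs of lines for the 9 measured members, 1 array against 1. The grey band spans the middle 90% of all genes and the grey line is their median; Fos, Fosb, Jun, Egr1 and Egr2 lie below the band in PKM2 knock-in minus wild type, and Fosl1 and Fosl2 above it.

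Over the 3 days together, no difference between lines in a member passed the test. In the additive limma model of line and day, 0 of 9 members were called in PKM1 knock-in minus wild type and 0 of 9 in PKM2 knock-in minus wild type (adjusted p under 0.05), beside 0.0133% of all genes in each, and 0 of 9 in PKM2 minus PKM1 knock-in, beside 0%. At an unadjusted p under 0.05 the counts were 0, 1 and 1, beside 12.3%, 13.4% and 7.94% of all genes. The one gene was Fos, at -1.69 ± 0.70 (log2, SE, n = 3 arrays per line, lower on 2 of 3 days) for PKM2 knock-in minus wild type (limma adjusted p = 0.37) and -1.70 ± 0.70 against PKM1 knock-in (limma adjusted p = 0.627). Egr2, with a 13.4-fold day 0 difference, averaged to -0.07 ± 1.07 for PKM2 knock-in minus wild type, which was above 0 at days 3 and 7. Its wild type signal at day 3 was not well above background and was set to 5, so the size of this average is uncertain. With other settings, left-out arrays included, it ran from -1.14 to 1.32. These contrasts include the day 0 arrays that the choice of genes had in view.

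**Figure D3:**
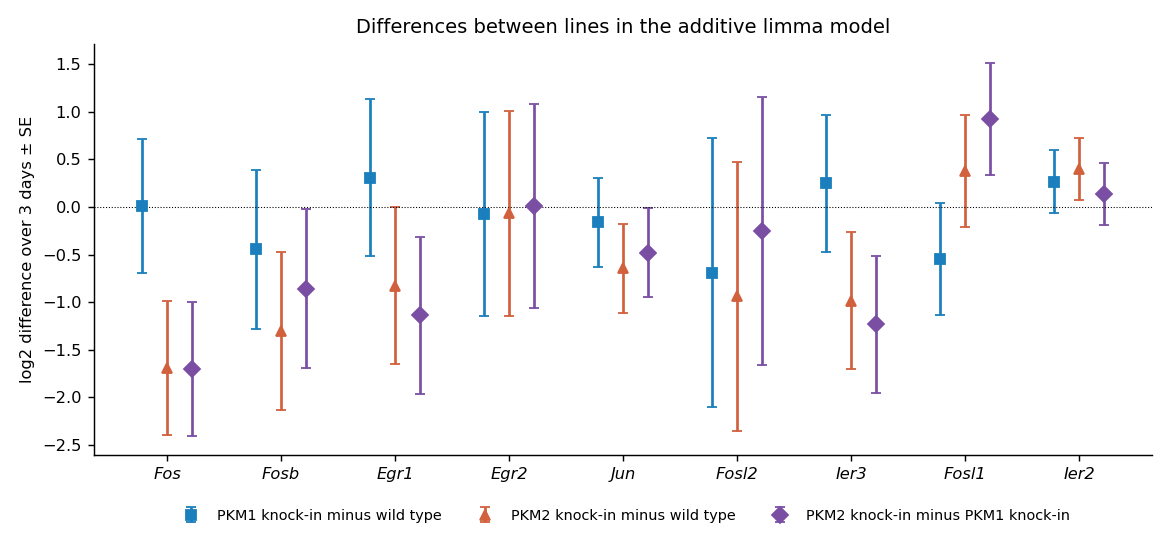
Difference between lines (log2) averaged over the 3 days in the limma model, for the 9 measured members; bars are the standard errors of the fit. Fos in the PKM2 knock-in line, at -1.69 and -1.70, lies farthest from 0, and no member was called.

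By day 3, Fos, Fosb, Jun, Egr1 and Egr2 had fallen. In limma these 5 of the 9 members were called in day 3 minus day 0, all lower, where 4.05% of all genes were called, 2.2% lower and 1.85% higher. Because the rule used these arrays, the count is a description. For 8 of 9 members, all but Fosl1, every day 0 array lay above every day 3 array, and 14.3% of all genes did so.

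Fos had day 3 signals of 55.8 in wild type, 73.7 in PKM1 knock-in and 79.4 in PKM2 knock-in embryoid bodies. It was 554-fold below day 0 in wild type, 256-fold in PKM1 knock-in and 35.2-fold in PKM2 knock-in. The day 3 values lay within 1.42-fold of each other, so the folds followed the order of the lines at day 0. The limma difference over the lines was -7.42 ± 0.70 (log2, SE, n = 3 lines, adjusted p = 0.0124).

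Fosb reached 59.99, 53.1 and 79.4 at day 3 in wild type, PKM1 knock-in and PKM2 knock-in, a limma difference of -5.77 ± 0.83 (adjusted p = 0.0286). Jun kept signals of 835, 1038 and 1323, and its limma difference was -3.10 ± 0.47 (adjusted p = 0.0309). For Fos, Jun and Egr1 the day 3 level was lowest in wild type, then PKM1 knock-in, and highest in PKM2 knock-in, opposite to day 0, but with at most 1.93-fold between any lines. In these 3 genes the line with the highest day 0 signal had the lowest day 3 signal.

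Egr1 had day 3 signals of 491, 779.7 and 948 and a limma difference of -4.39 ± 0.82 (adjusted p = 0.0436). Egr2 was well above background at day 3 in PKM2 knock-in only, at 33.9. At the detection limits its mean was 55.1-fold below day 0, with 1 of 3 day 3 arrays measured and a limma difference of -6.55 ± 1.07 (adjusted p = 0.035). With normexp background that difference was -3.87. Both EGR genes were higher in PKM2 knock-in than in wild type at day 3, Egr1 by 1.93-fold and Egr2 by at least 2.06-fold, where day 0 had the opposite order.

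Of the 4 measured members not called, Fosl2 was not well above background on any of the 3 day 3 arrays and at least 16.2-fold below day 0 (-4.66, limma adjusted p = 0.107). That difference was -2.03 with normexp background and -2.51 as the mean of its probes. Ier3 had day 3 signals of 203, 186 and 144 (-2.05, limma adjusted p = 0.141). Fosl1 had 84.8, 59.3 and 95.8, and Ier2 had 521, 821 and 865. For Ier2 the day 3 level was 2.66-fold below day 0 in wild type and 1.58-fold in PKM1 knock-in, and 952 and 865 were the signals of these days in PKM2 knock-in. Fosl1 showed the reverse, being 1.57-fold below day 0 in wild type and 4.99-fold in PKM2 knock-in.

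The day 3 calls depended on single arrays. With the slide as a block, which leaves the PKM2 knock-in day 7 array out of the estimate, 5 members were again called, but Fosl2 and Ier3 took the place of Egr1 (limma adjusted p = 0.0732) and Egr2 (0.0527). Without the wild type line, the PKM1 knock-in line, or any one of their day 0 and day 3 arrays, 0 members were called. In those settings 0 to 17 of all 15016 genes were called. The member counts were 2 without wild type day 7 (163 of all genes), 3 without PKM2 knock-in day 0 (108) or day 3 (133), and 7 without PKM2 knock-in day 7 (1260). The calls over all genes thus moved with those of the members. Within slide 1 the PKM2 knock-in line could be compared directly: 8 of 9 members were at least 2-fold lower at day 3 than at day 0, all but Ier2, where 10.9% of all genes were.

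At day 7 the members divided. Fosl2 and Ier3 were near or above their day 0 level in wild type and PKM1 knock-in, while Jun lay between its day 3 and day 0 levels. Fos and Egr2 were at least 2-fold above day 3 in wild type and PKM1 knock-in but far below day 0, and Fosb was within 2-fold of its day 3 level in all 3 lines. In the PKM2 knock-in line none of these came back to within 2-fold of day 0. In limma 0 of 9 members were called in day 7 minus day 0, where 0.0932% of all genes were, and 0 of 9 in day 7 minus day 3, where 0% were. At an unadjusted p under 0.05 the first count was 7, beside 14.3% of all genes, and the second was 2, beside 30.3%.

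Fosl2 had day 7 signals of 788 in wild type, 662 in PKM1 knock-in and 24.2, not well above background, in PKM2 knock-in. The first pair was 3.52-fold and 3.12-fold above its own day 0 level, and PKM2 knock-in was at least 29.1-fold below its own. Between lines at day 7, PKM2 knock-in was at least 32.6-fold below wild type and at least 27.4-fold below PKM1 knock-in. The dimmer Fosl2 probe went against this, with day 7 signals of 23.4, 23.5 and 79.9. It was well above background on 4 of 9 arrays only, so the 2 probes of Fosl2 disagree on the PKM2 knock-in day 7 array.

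Ier3 had day 7 signals of 647, 1170 and 94.7 in wild type, PKM1 knock-in and PKM2 knock-in. These were 95.9%, 172% and 11.3% of the day 0 signal. PKM2 knock-in lay 6.83-fold below wild type and 12.3-fold below PKM1 knock-in. Ier3 had been nearly equal in the 3 lines at day 0 and at day 3, so the day 7 gap between lines was the widest it showed.

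Jun had day 7 signals of 4394, 5426 and 1938, which had regained 56.1%, 83.9% and 25.2% of the log2 distance between day 0 and day 3. It was higher at day 7 than at day 3 in all 3 lines (limma 1.78 ± 0.47, SE, n = 3 lines, adjusted p = 0.0893). Fos had signals of 270.0, 340.4 and 62.0, and had regained 25.0% and 27.6% of its log2 distance in wild type and PKM1 knock-in, while PKM2 knock-in lay below its day 3 level. PKM2 knock-in was 4.35-fold below wild type for Fos and 2.27-fold for Jun.

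Fosb had day 7 signals of 61.7, 78.3 and 56.1, and Egr2 had 33.2, 40.1 and 56.6. Egr1 had 450.3, 1385 and 486, so that PKM1 knock-in was 3.08-fold above wild type, the reverse of day 0. Fosl1 (49.2, 40.8 and 26.6) and Ier2 (364, 429 and 732) were lower at day 7 than at day 3 in every line. Of these 5 genes, only Egr1 had a line, PKM1 knock-in, at least 2-fold above both other lines at day 7. Every day 0 array lay above every day 7 array for 7 of 9 members, all but Fosl2 and Ier3, and for 8.93% of all genes.

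**Figure D4:**
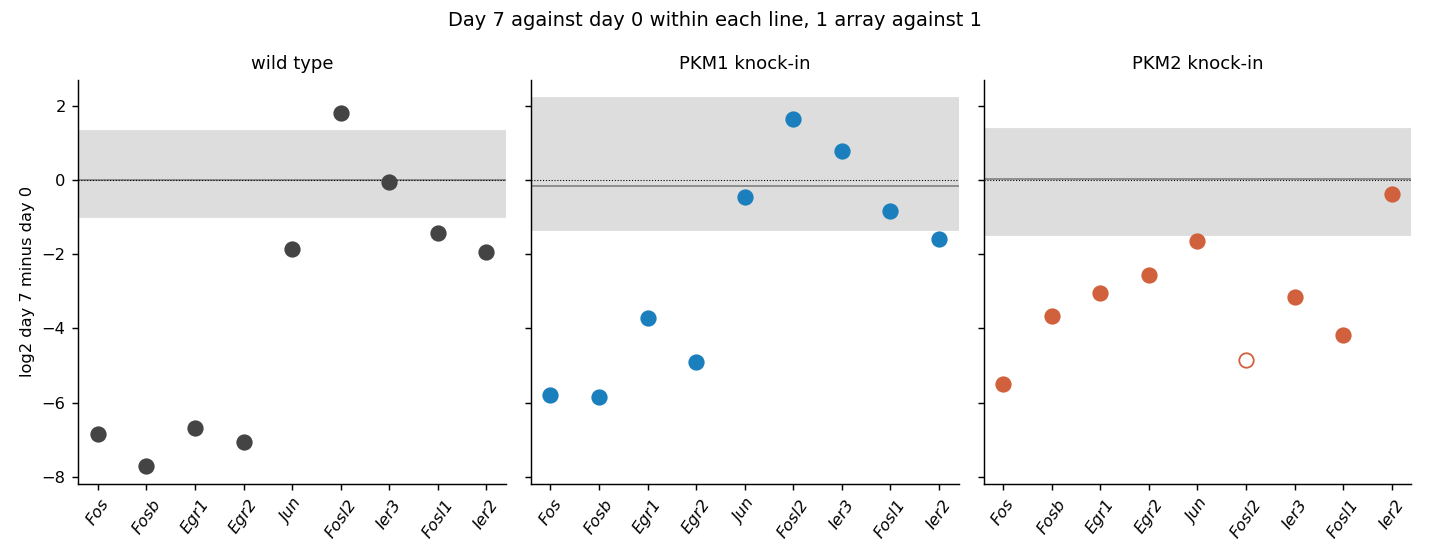
Day 7 minus day 0 (log2) within each line for the 9 measured members, 1 array against 1, with the grey band over the middle 90% of all genes; the open point was not well above background at day 7. Fosl2 lies at 1.82 in wild type and 1.64 in PKM1 knock-in but at -4.86 in PKM2 knock-in.

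Counted against all genes, 5 of 9 members (Fos, Fosl2, Jun, Egr2 and Ier3) were at least 2-fold higher at day 7 than at day 3 in wild type, where 12.3% of genes were. The same 5 were so in PKM1 knock-in, where 17% of genes were, and 0 of 9 in PKM2 knock-in, where 7.07% were. Among members at least 2-fold lower at day 3 than at day 0, 2 of 8 in wild type (Fosl2 and Ier3) were at day 7 within 2-fold of day 0 or above it, beside 74.6% of all such genes. In PKM1 knock-in 3 of 7 were (Fosl2, Jun and Ier3), beside 71.2%, and in PKM2 knock-in 0 of 8, beside 43.7%. In all 3 lines the members' share was below that of all lowered genes, and these shares have no test. The median member difference, day 3 minus day 0, was -4.27 (log2) in wild type, -4.54 in PKM1 knock-in and -2.54 in PKM2 knock-in. The 5th percentile of all genes was -1.72, -1.56 and -1.70 in the same order. Members thus mostly had further to rise to come within 2-fold of day 0, so the shares cannot show a weaker recovery.

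Comparing lines at day 7, 4 of 9 members (Fos, Fosl2, Jun and Ier3) were at least 2-fold lower in PKM2 knock-in than in wild type, where 12.1% of all genes were. Against PKM1 knock-in 5 were lower, Egr1 being the fifth, where 16.2% were. As slide 3 held no other array than PKM2 knock-in day 7, slide and sample cannot be told apart there. Within slide 1, 7 of 9 members were at least 2-fold lower at day 7 than at day 0 in wild type, beside 4.87% of genes. Within slide 2, 5 of 9 were so in PKM1 knock-in, beside 10.1%.

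Several calls at day 7 turned on that array. Without it, 3 members (Fosl2, Ier3 and Jun) were called in day 7 minus day 3, where 2389 of all 15016 genes were, and 1 (Fos) in day 7 minus day 0, where 227 were. Without the whole PKM2 knock-in line the counts were 4 (with Fos added), beside 1458 of all genes, and 2 (Fos and Fosb), beside 106. With the slide as a block, which drops that array, 2 members and 981 of all genes were called in day 7 minus day 3, Fosl2 at 6.35 (limma adjusted p = 0.0145) and Ier3 at 2.29 (limma adjusted p = 0.0373).

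Markers of fibroblasts moved between the same arrays. The 20 genes summed to 2552, 2256 and 1730.1 at day 3 and to 40038, 47857 and 1604 at day 7 in wild type, PKM1 knock-in and PKM2 knock-in. Of 18 tested, 18 were lower at day 3 than at day 0 in the model and 5 were called (median -2.30 log2, all genes 0.09). Of all genes, 2.2% were called lower. At day 7, 16 of 18 were lower in PKM2 knock-in than in wild type (median -2.67 log2, all genes 0.11), where 57.3% of all genes were higher. The activated fibroblast gene Fap was well above background on 0 of 9 arrays, and no marker was at a signal of 0. Col1a2, a collagen chain, had signals of 1391, 2791 and 127 at day 7. Dcn had 261, 127 and 59.2 and so stayed far below its day 0 level in every line. Against day 0, 10 of 18 markers were higher at day 7 and 8 lower in wild type (median 0.06 log2). The counts were the same in PKM1 knock-in (median 0.24), while in PKM2 knock-in 2 were higher and 16 lower (median -2.43). Of all genes, 48.7% in wild type, 42.3% in PKM1 knock-in and 51.2% in PKM2 knock-in were higher at day 7 than at day 0. Visceral endoderm markers were by far highest in PKM1 knock-in, with day 7 sums of 12621, 531949 and 6423 in the same order of lines. Of 12 tested, 10, 12 and 11 were higher at day 7 than at day 0 (median 2.56, 9.16 and 1.54 log2), beside the same shares of all genes. The part of these cells in the day 3 and day 7 levels of the members was not tested.

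**Figure D5:**
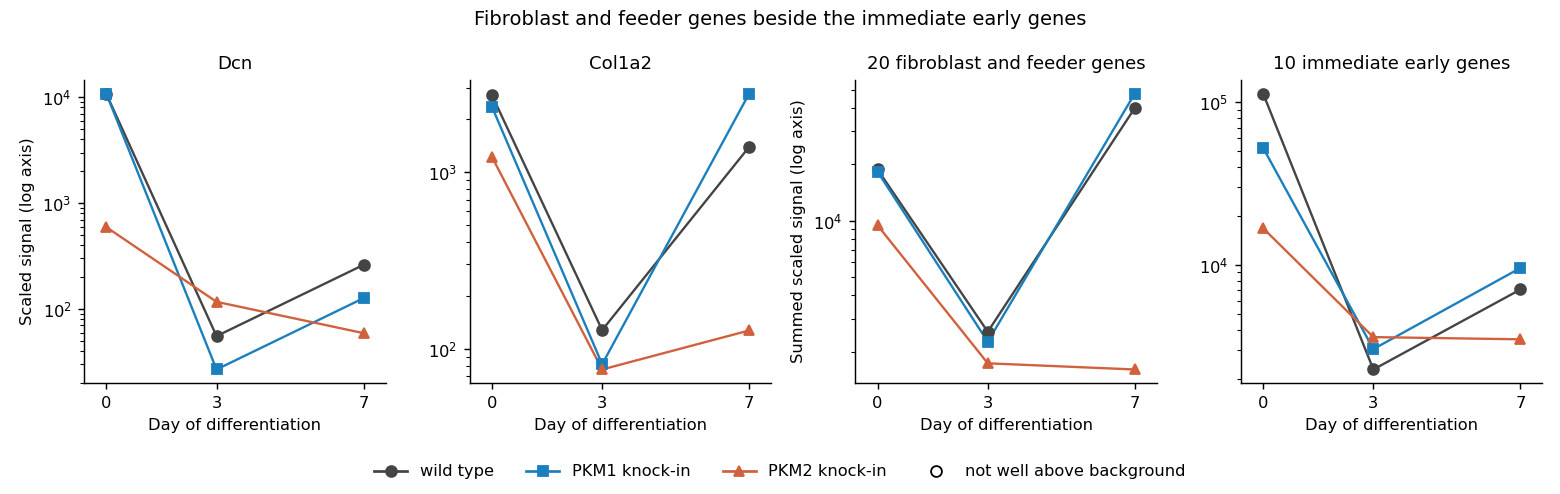
Scaled signals (log axes) of the fibroblast genes Dcn and Col1a2, and summed signals of the 20 fibroblast and feeder genes and of the 10 immediate early genes, by line and day; points of the summed panels are sums over genes whatever their detection. The marker sum in PKM2 knock-in stays at 1604 at day 7, where wild type reaches 40038.

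The members differed in how closely they followed one another over the 9 arrays, which share 3 days and 3 lines and are not independent. Pearson r with Fos was 0.969 for Fosb, 0.958 for Egr1, 0.946 for Egr2 and 0.899 for Jun. It was 0.689 for Ier3, 0.647 for Ier2, 0.595 for Fosl2 and 0.475 for Fosl1. Fosl2 and Ier3 followed each other at 0.885, whereas Fosl2 and Ier2 had -0.135. Fos, Fosb, Egr1 and Egr2 thus shared 1 profile, high at day 0 in the order of the lines. Fosl2 and Ier3 shared another, with the return at day 7 in wild type and PKM1 knock-in only. For Fosl2 this is the brighter probe, well above background on 5 of 9 arrays, and the dimmer probe was highest in PKM2 knock-in at day 7.

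Among 1952 other genes with an SD of at least 1 (log2) over the arrays, the 10 most like the mean member profile were Lonrf3 (r = 0.988), Cavin2, Ifi204, Foxc2, Ifi27, Tac1, Thbs2, Grem1, Ccl8 and Dcn. Most like Fos were Ifi204 (r = 0.975), Ifi27, Ccn5, Dcn and Cavin2, and among those most like Jun were Klhdc1 (r = 0.968), Tmem176a, Cpq and Osmr. Lonrf3 had signals of 916, 683 and 646 at day 0, 122, 117 and 177 at day 3 and 236, 355 and 136 at day 7. Grem1, a secreted BMP antagonist, had 1219.7, 785 and 621 at day 0 and 24.1 to 88.9 afterwards. Several of the others, such as Cavin2 and Ifi204, were well above background on 5 or fewer arrays, so that their lower levels are bounds. Foxc2, Tac1, Ccl8 and Ccn5 were well above background on the 3 day 0 arrays alone. These genes passed the filter only through the day on which they were high, so their likeness supports nothing by itself.

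Other genes of the response were set beside the members. Of 19 other immediate early transcription regulators, 17 were lower at day 3 than at day 0 in the model, 4 were called lower (Atf3, Klf4, Nr4a2 and Nr4a1, the last named after its value was seen) and 1 higher (Myc). The list median was -0.98 (log2), against 0.09 for all genes. Of all genes, 56.8% were higher at day 3, 2.2% were called lower and 1.85% called higher. Atf3, a stress-induced bZIP factor, had signals of 4920.3, 3577 and 1049 at day 0, 70.0, 37.6 and 128 at day 3, and 671, 5603 and 513 at day 7 (day 3 minus day 0 -5.25 ± 0.99, limma adjusted p = 0.0443). It thus shared the day 0 order of Fos, and at day 7 it was above its day 0 level in PKM1 knock-in only.

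Klf4, a pluripotency factor as well as an immediate early gene, was lower by -2.13 ± 0.28 (limma adjusted p = 0.0229), and the orphan nuclear receptor gene Nr4a2 by -2.08 ± 0.33 (0.0324). Myc, a growth regulator, was higher at day 3, by 1.64 ± 0.30 (limma adjusted p = 0.0422). The JUN relatives were lower without being called, Junb at -2.05 (limma adjusted p = 0.0612) and Jund at -1.24 (0.0955). Jund had day 0 signals of 20523, 14147 and 9607, the same order of lines as Jun, while Junb had 215, 196 and 197. At day 0, 8 of 19 genes of the list were lower in PKM2 knock-in than in wild type and 11 higher. This was near the share of all genes, of which 56.1% were higher. The list median was 0.37 (log2), against 0.08 for all genes, so the list as a whole was not lower there, as Fos was.

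Of 27 immediate early genes that are not transcription factors, 23 were lower at day 3, 4 were called lower and 0 higher (median -1.23). The shares over all genes were 56.8% higher, 2.2% called lower and 1.85% called higher. The 4 called were the prostaglandin synthase gene Ptgs2, Arc, the EGF receptor ligand gene Hbegf and Rhob. Ptgs2 had day 0 signals of 579.8, 276 and 178, in the order of Fos, and day 7 signals of 304, 58.4 and 27.9. Arc, a synaptic plasticity gene, was at 6618, 2750.1 and 7196 at day 0 and so did not follow that order. At day 7, 23 of the 27 were lower in PKM2 knock-in than in wild type (median -1.38, all genes 0.11), where 57.3% of all genes were higher.

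Upstream components moved little. Of 28 genes for SRF, ternary complex factors and MAP kinase components, 18 were higher and 10 lower at day 3, and 0 were called (median 0.11). Of all genes, 56.8% were higher and 4.05% were called (median 0.09). Srf itself, the factor that binds CArG boxes, had day 0 signals of 2283, 1716 and 2581 and day 3 signals of 1638, 1804 and 1403 (limma adjusted p = 0.335). The largest differences of the list were in Rps6ka2 (0.98) and Hras (0.91), with limma adjusted p = 0.112 and 0.0758. The transcripts of these kinases and factors say nothing of their activity.

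Of 16 ERK feedback and EGR corepressor genes, 11 were lower at day 3, where 56.8% of all genes were higher. Among them 1 was called, beside 2.2% of all genes called lower. This was the ERK phosphatase gene Dusp5, at least 6.60-fold lower at day 3 (limma adjusted p = 0.039). Dusp1, a MAP kinase phosphatase that is itself an immediate early gene, had day 0 signals of 4419, 2811 and 1053 and day 3 signals of 853, 868 and 829.7 (limma adjusted p = 0.0795). Nab2, which encodes a corepressor of EGR proteins and is an EGR target, had 870.1, 631 and 3827 at day 0. Dusp1 thus had the day 0 order of Fos, and Nab2 was highest in PKM2 knock-in, where Egr1 and Egr2 were lowest.

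Among 11 bZIP partners of FOS and JUN, 9 were lower at day 3, where 56.8% of all genes were higher. Of the partners 2 were called, both lower, beside 2.2% of all genes called lower. They were Atf3 and Jdp2, a repressor of AP-1 (-2.68 ± 0.49, limma adjusted p = 0.0423). Atf3, Junb and Jund were also among the other immediate early transcription regulators above, so the Atf3 call is the same one. Among 12 genes known as AP-1 targets in other cells, 10 were lower and 4 called lower, beside the same shares of all genes. The 4 were the cytokine genes Il6, Cxcl1 and Ccl7 and the metalloprotease gene Mmp3. Il6 was at least 19.5-fold lower at day 3, from day 0 signals of 496, 474 and 204. It was well above background on the 3 day 0 arrays alone. It thus passed the filter only through the day on which it was high, and its call supports nothing by itself. Cxcl1 had day 0 signals of 1549, 1403 and 179, and was not well above background on any of the 3 day 3 arrays. Fibroblasts also express these 4 genes. Of 9 heat shock genes 0 were called, beside 4.05% of all genes. The largest differences were Hspa1a (-1.57, limma adjusted p = 0.34) and Hspd1 (1.13, limma adjusted p = 0.0578).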

How the data were processed

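RNA from 9 mouse samples was hybridised to one-colour Agilent arrays after RNeasy purification and Cy3 labelling of 0.1 µg, per the labels' protocols. The authors' deposited intensity values are processed signals, per the file headers with background already subtracted, from Agilent Feature Extraction version 10.10, per the submitters' processing notes. The series' deposited matrix gave the same signals within 0.497%. Control spots (3671 of 62976 per array) and flagged spots (133 to 225) were left out. RefSeq accessions named 27235 of 55681 probes. Signals were scaled to the 75th percentile, set to at least 5 and log2 transformed. For dim probes the size of a log2 change depends on the floor and the background, so it is uncertain. Egr2 at day 3 was 93.6-fold below day 0 in limma but 55.1-fold at the detection limits. A probe had to be well above background on 3 or more arrays; the one with the highest mean stood for a gene, giving 15016 genes. A probe dim on an array has only a bound there: "at least N-fold" sets the bright signal against the higher of the dim probe's signal and the lowest signal among probes well above background.

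All 9 arrays entered 1 additive model with terms for line and day, in limma 3.58.1 under R 4.3.3 and version 1.17.8 of data.table, with Benjamini-Hochberg adjustment over all genes and a threshold of 0.05. The method was tested on simulated data. Python 3.11.15, pandas 2.3.3, numpy 2.4.6 and matplotlib 3.10.9 were used for reading and plotting. Members, gene lists and tests were chosen with earlier results of these data known. Named were every member, for each other list up to 4 called genes with the largest day 3 change or else the largest 2, and in any case Junb, Jund, Atf3, Srf, Dusp1 and Nab2. The genes most like the mean profile, Fos and Jun by Pearson r were named too (one is not reported here), with the brightest markers at day 0. Of the markers, Dppa5a and Esrrb (pluripotency), Apoa2 and Rbp4 (visceral endoderm), Csf1r and Cd14 (macrophage), Kdr and Pecam1 (endothelium), Myh6 and Nkx2-5 (heart) and Otx2 and Tubb3 (neural) were not called in day 3 minus day 0 (limma adjusted p 0.165 to 0.95). Alternatives were other normalizations, backgrounds, filters, floors and probe rules, the slide as a block or no block, and leaving out each line or array.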

Additional observations from a re-analysis of the deposited data

Results flagged for a closer look

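Some members differed between lines in one direction on one day and in the other direction on another; each value is 1 array against 1 (log2), and no difference between them was tested. For Fosl2, day 7 minus day 0 was 1.82 in wild type and 1.64 in PKM1 knock-in but -4.86 in PKM2 knock-in, whose day 7 value was not well above background. PKM2 knock-in minus wild type in Fosl2 was 1.65 at day 0 and -5.02 at day 7, and PKM2 minus PKM1 knock-in was 1.73 and -4.77. The dimmer Fosl2 probe did not show the day 7 difference.

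For Egr1, PKM1 knock-in minus wild type was -1.36 at day 0 and 1.62 at day 7. For Egr2, PKM2 knock-in minus wild type was -3.74 at day 0 and 2.76 at day 3, and PKM2 minus PKM1 knock-in was -1.87 and 1.40. The day 3 values of Egr2 in wild type and PKM1 knock-in were not well above background, so the day 3 differences are at least 2.06-fold and 1.78-fold only.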

How the results depend on the processing

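The count of members called in day 3 minus day 0 (5 in limma) stayed within 1.5 times of that in all settings that kept every array except for no filter on dim probes, where it was 1 (149 of 20660 genes called; more genes were tested). It ranged from 0 to 7 when 1 line or array was left out. In day 7 minus day 0 (0 members) it was 1, Fos, with normexp background and 1, again Fos, with trend and robust moderation, and 0 to 2 with a line or array left out. In day 7 minus day 3 (0 members) it was 2 with the slide as a block, and 0 to 4 with a line or array left out. The contrasts between lines gave 0 members in all 24 settings. Over all genes the calls ranged from 0 to 1260 in day 3 minus day 0 (608 as reported, 927 with normexp background, 1008 with trend and robust moderation), from 0 to 227 in day 7 minus day 0 and from 0 to 2389 in day 7 minus day 3. Between PKM1 knock-in and wild type they ranged from 0 to 5, and between PKM2 knock-in and wild type from 0 to 17.

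Of 225 values of single members under other settings, 218 kept their sign and 7 small ones did not. Fosb in day 7 minus day 3 was -0.13 with quantile normalization and -0.11 with normexp background, and Egr1 was 0.11 with scaling to detected probes; the cause was not tested. At day 0, PKM1 knock-in minus wild type turned in Ier3 (0.01 as reported, -0.05 to -0.14 in 3 settings) and in Fosl2 (-0.08, and 0.04 with the mean of probes). A call was lost by Egr1 in day 3 minus day 0 with quantile normalization (limma adjusted p = 0.0545). The size of 9 values moved by at least 1 (log2), 7 of them with normexp background: Egr2 day 7 minus day 3 (from 1.70 to 0.36), Fosl2 day 7 minus day 3 (2.08, and 2.68 with the mean of probes), Fosb (-4.55) and Fos (-6.38) in day 3 minus day 0, Fosl1 between the knock-in lines at day 0 (from 2.70 to 1.66), and Egr2 (-3.87) and Fosl2 (-2.03, and -2.51 with the mean of probes) in day 3 minus day 0. The model compares days within lines; without the line term 5 members (479 of all genes) were called in day 3 minus day 0. With 1 array per group, single-array differences carry no error, and signals near background limit Fosl2, Egr2 and Egr3.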
